A study of Homo sapiens with 6 samples.

Results

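The E2F transcription factors and the retinoblastoma pocket proteins were examined in A549 cells, an established human lung adenocarcinoma line, with and without the MIR21 gene. The family was taken as the 10 genes whose symbols in the gene column of the expression table were E2F1, E2F2, E2F3, E2F4, E2F5, E2F7, E2F8, RB1, RBL1 or RBL2, out of 58174 genes listed. The series consists of polyA RNA-seq libraries, 3 libraries of parental cells (Ctrl) and 3 of cells with MIR21 removed (MIR21-KO). Both were kept in DMEM with fetal bovine serum and collected 48 h after seeding. For MIR21-KO, a pair of guide RNAs and Cas9 was introduced into A549 cells and single sorted cells were grown out. The sources used here do not say how many clones were sequenced, and properties of a clone cannot be told apart from effects of the deletion. The labels do not say whether replicates came from separate cultures. The study describes its experiments as biologically replicated and its RNA-seq samples as independent. It does not say whether independent meant separate cultures or separate clones. The p-values therefore measure only the spread between these libraries.

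E2F1, E2F2 and E2F3 are the activator E2Fs, which drive genes of S-phase entry, whereas E2F4 and E2F5 act mostly as repressors in complex with pocket proteins. E2F7 and E2F8 are atypical members that repress E2F target genes without needing a DP partner. RB1 restrains the activators until cyclin-dependent kinases phosphorylate it, and RBL1 (p107) and RBL2 (p130) bind E2F4 or E2F5 and the MuvB core in the DREAM complex, which holds cell cycle genes down in resting cells. E2F1, E2F2 and RBL1 are themselves known targets of E2F factors.

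The values were FPKM, fragments scaled to gene length and library size, so that levels of different genes can be compared per length. The libraries held 10631667 to 14345209 reads, and between 77 and 1130 reads lay behind each value of a family member. MIR21 was listed at 0 in all 6 libraries, which gives no check of the deletion in polyA RNA. VMP1, whose gene spans the MIR21 locus, stood at 75.1 ± 3.83 FPKM in Ctrl and 142.5 ± 7.18 FPKM in MIR21-KO (mean ± SD, n = 3 each). All 10 markers fixed for A549 epithelium had a mean above 1 FPKM in at least one group, with sums of 4189 to 4338 FPKM in Ctrl and 4324 to 4974 FPKM in MIR21-KO, although CDH1 and CLDN1 were called lower in MIR21-KO. ALDH1A1 had the largest values in that sum, with means of 2014 FPKM in Ctrl and 2774 FPKM in MIR21-KO. KRT18 had means of 673 and 422 FPKM without passing the threshold (FDR 0.0153 by limma). By voom 3 of these markers were lower and 1 was higher. The 14 markers of other cell types summed to 4.76 to 5.37 and 4.32 to 6.71 FPKM, most of it CD14, and CD3E, HBB and MYH7 were among those at 0 throughout.

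Promoter sequences are shown for the members whose entry holds a word known from E2F or cell cycle elements. RefSeq promoter entries (GRCh38.p14, 250 bases before and 50 after a start site) of 8 of the 10 members were searched. E2F8 had no entry, and the promoter of E2F5 was left out of the search and is not reported here. The entry for RB1 begins at a start 172724 bases inside the gene and is not shown. Each sequence was searched on both strands for the E2F words TTTCCCGC and TTTGGCGC and for the word TTTGAA, known as the cell cycle genes homology region (CHR), and matches are in capitals. No matches overlapped.
E2F1 promoter, chr20:33686336-33686635, minus strand: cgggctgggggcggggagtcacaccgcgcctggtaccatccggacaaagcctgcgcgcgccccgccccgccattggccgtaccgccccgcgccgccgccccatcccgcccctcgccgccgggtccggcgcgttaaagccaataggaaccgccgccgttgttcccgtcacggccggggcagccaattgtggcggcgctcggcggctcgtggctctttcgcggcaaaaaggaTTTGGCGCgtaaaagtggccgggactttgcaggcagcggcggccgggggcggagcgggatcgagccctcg
E2F2 promoter, chr1:23531184-23531483, minus strand: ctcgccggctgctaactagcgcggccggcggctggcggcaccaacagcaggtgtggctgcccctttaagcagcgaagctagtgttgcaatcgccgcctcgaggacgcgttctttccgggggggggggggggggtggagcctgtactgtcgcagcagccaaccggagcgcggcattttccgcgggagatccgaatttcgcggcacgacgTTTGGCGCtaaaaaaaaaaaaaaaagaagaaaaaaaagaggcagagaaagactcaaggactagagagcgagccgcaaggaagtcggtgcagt
E2F3 promoter, chr6:20401629-20401928, plus strand: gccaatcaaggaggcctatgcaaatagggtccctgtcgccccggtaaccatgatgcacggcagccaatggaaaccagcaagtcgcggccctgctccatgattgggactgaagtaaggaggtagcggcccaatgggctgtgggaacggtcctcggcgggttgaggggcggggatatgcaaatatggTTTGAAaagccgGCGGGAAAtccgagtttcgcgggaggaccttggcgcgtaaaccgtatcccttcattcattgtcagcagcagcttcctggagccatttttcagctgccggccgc
RBL1 promoter, chr20:37095948-37096247, minus strand: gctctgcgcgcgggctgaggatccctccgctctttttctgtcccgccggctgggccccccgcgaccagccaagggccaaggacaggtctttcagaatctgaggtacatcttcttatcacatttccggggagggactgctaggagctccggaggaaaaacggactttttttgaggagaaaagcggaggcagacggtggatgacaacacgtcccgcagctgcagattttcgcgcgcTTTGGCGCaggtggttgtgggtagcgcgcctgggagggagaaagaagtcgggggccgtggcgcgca
RBL2 promoter, chr16:53434221-53434520, plus strand: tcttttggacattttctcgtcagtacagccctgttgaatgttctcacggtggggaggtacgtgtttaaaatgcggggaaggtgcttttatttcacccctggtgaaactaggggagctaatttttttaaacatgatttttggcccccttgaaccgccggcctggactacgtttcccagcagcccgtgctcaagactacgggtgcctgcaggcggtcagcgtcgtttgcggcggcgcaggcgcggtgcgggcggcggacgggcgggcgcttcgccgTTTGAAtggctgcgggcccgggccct

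An E2F word was found in the promoters of 4 of the 8 members searched, the internal entry of RB1 included. Of all 27305 genes with a promoter entry, 2.75% held one. TTTGGCGC stood at position -20 in E2F1, -42 in E2F2 and -16 in RBL1, with the start site counted as 0. In E2F3 the reverse complement of TTTCCCGC stood at -53, preceded at -65 by a CHR word. A CHR word was also found in RBL2, at position 24 of an entry whose start lies 494 bases inside the gene. Of all genes with a promoter entry, 18.2% held a CHR word, so these few CHR matches are no result about the members. The promoter entries of E2F4 and E2F7 and the second entries of E2F3 and RBL2 held none of these words. A match says only that the letters are present.

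The mature microRNA made from the deleted gene and let-7a, one of the let-7 family that is also known to act on cell cycle genes, are shown with the seed (bases 2 to 8) in capitals, as the members' 3' UTRs were searched for these seeds.
miR-21-5p, chr17:59841273-59841294, plus strand: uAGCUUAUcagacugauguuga
let-7a-5p, chr9:94175962-94175983, plus strand: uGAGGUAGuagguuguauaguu
Sites of at least 7 bases (8mer, 7mer-m8 or 7mer-A1) for miR-21-5p were found in the longest annotated 3' UTR of 2 members, E2F3 and E2F5, whereas 15.1% of 11659 tested genes with a 3' UTR held one. The site of E2F5 was a 7mer-m8 in a 3' UTR of 4294 bases. Sites for let-7 were found in 3 members, with 2 in E2F2 and 1 each in E2F5 and RB1, against 20.3% of tested genes. These counts of 2 and 3 members are near the shares over tested genes and are no result about the members. The longest 3' UTRs of E2F2, E2F3, E2F5 and RB1 had 3450, 3285, 4294 and 1819 bases, against a median of 1621. The sites of E2F2, E2F3 and RB1 are given with up to 15 bases before them and the match in capitals.
E2F3, miR-21-5p, 7mer-A1: tgtcataattcagttTAAGCTAt
E2F2, let-7, 7mer-m8: gcctgcccccgactCTACCTCct
E2F2, let-7, 7mer-m8: agggaaaggccctgCTACCTCct
RB1, let-7, 7mer-A1: ctgaaacagatttcaTACCTCAg
E2F5, with a site for each microRNA, was lower in MIR21-KO, while the levels of E2F3 overlapped between the groups. The transcripts of the remaining 6 members held no miR-21-5p or let-7 site in their longest 3' UTR. Over any annotated 3' UTR, 4 members held a let-7 site, as E2F4 had 1 in another 3' UTR, and 2 held a miR-21-5p site.

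All 10 members passed the filter of a mean of at least 0.5 FPKM and were tested among 16006 genes by limma on log2(FPKM + 0.1), with calls at a false discovery rate (FDR) under 0.01. E2F5, E2F2 and E2F8 fell in MIR21-KO, and no member rose. Over all genes tested, 8.38% were called lower, 7.66% higher and 16.0% in either direction. At an unadjusted p under 0.05 by limma, no member was higher and 8 were lower. Such a p was common, as at least 6795 of the 16006 genes reached it in either direction. By voom on recovered reads no member was called higher and 4 were called lower. Voom called 11.4% of all genes lower and 10.5% higher. Of the 10 members, 9 had a negative log2 fold change and the median was -0.54, whereas the median over all genes tested was -0.02. The libraries of the groups did not overlap for 7 members, all of them lower in MIR21-KO, and 25.2% of all genes tested were lower without overlap. The count of called members was 1, E2F5, when Ctrl replicate 1, Ctrl replicate 3 or MIR21-KO replicate 2 was left out. Over all genes, 2.36% to 2.47% were called lower in those fits. In bulk RNA, fewer cycling cells and less of a transcript in each cell cannot be told apart.

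**Figure D1:**
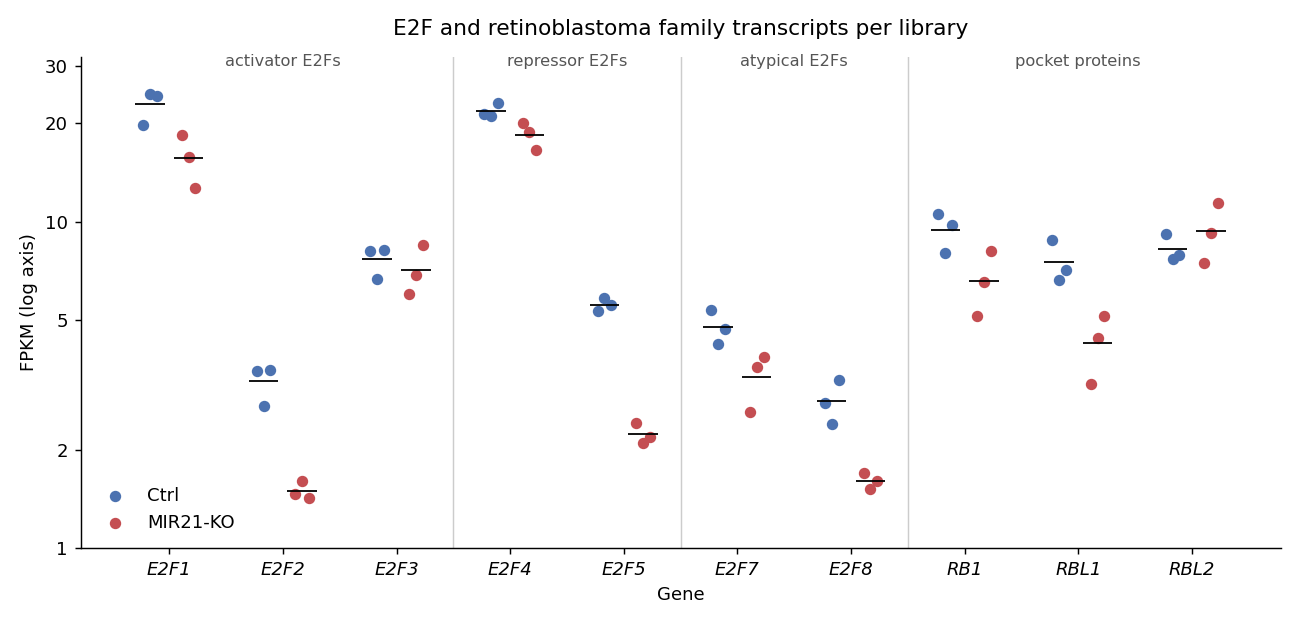
FPKM of the 10 family members on a log axis, with 1 point per library (replicates 1 to 3 from left to right within each group), bars for group means, Ctrl in blue and MIR21-KO in red. E2F5 at 2.09 to 2.41 FPKM in MIR21-KO lies well under its Ctrl values of 5.33 to 5.82, whereas the points of E2F3, RB1 and RBL2 overlap between the groups.

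Among the activators, E2F2 (ENSG00000007968, GRCh38 chr1:23506430-23531220, minus strand) fell. Its level was 3.50, 2.73 and 3.52 FPKM in Ctrl replicates 1 to 3 and 1.47, 1.60 and 1.43 FPKM in MIR21-KO replicates 1 to 3. All 3 MIR21-KO libraries lay close together and well under the lowest Ctrl library, at 46.1% of the Ctrl mean. This amounts to a log2 fold change of -1.06 ± 0.15 (SE) and, by limma, an FDR of 0.00268. The FDR was 0.0137 to 0.0175 without Ctrl replicate 1, Ctrl replicate 3 or MIR21-KO replicate 2.

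E2F1 (ENSG00000101412, chr20:33675683-33686404, minus strand), the activator best known for driving S-phase entry and, when in excess, apoptosis, had the highest mean in Ctrl cells. Its Ctrl libraries overlapped those of E2F4. E2F1 stood at 19.8, 24.6 and 24.2 FPKM in Ctrl and at 18.4, 15.8 and 12.7 FPKM in MIR21-KO. The groups did not overlap, but the MIR21-KO libraries were widely spread. The log2 fold change of -0.56 ± 0.16 did not pass the threshold (FDR 0.0345 by limma). E2F3 (ENSG00000112242, chr6:20401906-20493715, plus strand) stood at 8.12, 6.70 and 8.21 FPKM in Ctrl and at 6.01, 6.88 and 8.46 FPKM in MIR21-KO. Its highest library was a MIR21-KO library, and the log2 fold change of -0.12 had a 95% interval of -0.47 to 0.24 (FDR 0.592 by limma).

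E2F5 (ENSG00000133740, chr8:85177225-85217158, plus strand), a repressor that pairs with RBL2, had the lowest FDR of the family. Its level was 5.33, 5.82 and 5.57 FPKM in Ctrl and 2.41, 2.09 and 2.18 FPKM in MIR21-KO. Both groups were tight, and MIR21-KO kept 40.0% of the Ctrl mean. By limma its log2 fold change was -1.28 ± 0.10 at an FDR of 0.000359, and E2F5 was called in all 21 alternative settings. Its exons share 969 bases with those of C8orf59 on the opposite strand, which stood at 18.3 FPKM in Ctrl and 21.3 FPKM in MIR21-KO, and 133 bases with the antisense gene AC011773.1, at 1.92 and 0.486 FPKM. Whether reads were counted by strand is not stated, so reads of these stretches could belong to either gene.

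E2F4 (ENSG00000205250, chr16:67192169-67198918, plus strand), the other repressor and the usual E2F of DREAM, was nearly as abundant as E2F1. It stood at 21.4, 21.0 and 23.1 FPKM in Ctrl and at 20.1, 18.9 and 16.6 FPKM in MIR21-KO. The groups were separate by a narrow margin, and the log2 fold change of -0.24 ± 0.09 did not pass the threshold (FDR 0.0902 by limma). Within each library, E2F5 amounted to 0.249, 0.277 and 0.242 of the E2F4 level in Ctrl and to 0.120, 0.111 and 0.132 of it in MIR21-KO. The E2F5 to E2F4 ratio thus had a mean of 0.256 ± 0.0185 in Ctrl and 0.121 ± 0.0105 in MIR21-KO (n = 3, SD), a measure that library scaling does not touch but the different GC content of the 2 genes can.

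Both atypical E2Fs had lower values in MIR21-KO. E2F8 (ENSG00000129173, chr11:19224063-19241620, minus strand) was measured at 2.79, 2.40 and 3.27 FPKM in Ctrl and at 1.70, 1.52 and 1.60 FPKM in MIR21-KO, without overlap. Its log2 fold change was -0.76 ± 0.15 and its FDR of 0.00973 by limma lay just under the threshold. That call was lost without any one of the 6 libraries, with FDRs of 0.0155 to 0.0453, and it rests on 77 to 185 reads. E2F7 (ENSG00000165891, chr12:77021247-77065580, minus strand) was measured at 5.38, 4.23 and 4.70 FPKM in Ctrl and at 2.61, 3.59 and 3.84 FPKM in MIR21-KO. The highest MIR21-KO library was close to the lowest Ctrl library, and the log2 fold change of -0.51 ± 0.17 did not pass the threshold (FDR 0.0627 by limma).

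No pocket protein passed the threshold by limma. The shares of the 3 transcripts in their summed FPKM did not overlap between the groups. These shares depend on one another and were not tested. At an unadjusted p under 0.05 by limma, RB1 and RBL1 were lower and none was higher. At least 6795 of the 16006 genes reached such a p in either direction. By voom RBL1 was called lower. RBL1 (ENSG00000080839, chr20:36996349-37095995, minus strand), the pocket protein whose own transcription follows the cell cycle, was measured at 8.81, 6.64 and 7.10 FPKM in Ctrl and at 3.19, 4.39 and 5.13 FPKM in MIR21-KO. Its groups did not overlap, at a log2 fold change of -0.83 ± 0.19 and an FDR of 0.0187 by limma. Without MIR21-KO replicate 3 the FDR was 0.00848, and without any other single library it was 0.0233 to 0.0661. An antisense gene on the opposite strand, AL136172.1, shares 211 exon bases with RBL1 and had means of 0.667 and 0.430 FPKM.

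RB1 (ENSG00000139687, chr13:48303726-48599436, plus strand), the retinoblastoma tumour suppressor, was measured at 10.5, 8.02 and 9.80 FPKM in Ctrl and at 5.13, 6.53 and 8.16 FPKM in MIR21-KO. The highest MIR21-KO library exceeded the lowest Ctrl library, and the log2 fold change of -0.53 ± 0.19 did not pass the threshold (FDR 0.0723 by limma). RBL2 (ENSG00000103479, chr16:53433977-53491649, plus strand), the pocket protein of resting cells, was measured at 9.15, 7.67 and 7.91 FPKM in Ctrl and at 7.45, 9.25 and 11.4 FPKM in MIR21-KO. The groups overlapped, and RBL2 was the only member with a positive log2 fold change, 0.16 with a 95% interval of -0.22 to 0.55 (FDR 0.477 by limma). Its exons share 610 bases with AKTIP on the opposite strand, which stood at 5.24 FPKM in Ctrl and 4.24 FPKM in MIR21-KO, and 721 bases with AC007342.6 on that strand, at 0.328 and 0.655 FPKM.

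Set against RBL1 within the same library, RBL2 amounted to 1.04, 1.16 and 1.11 times its level in Ctrl and to 2.33, 2.11 and 2.22 times its level in MIR21-KO. The ratio was therefore 1.10 ± 0.0595 in Ctrl and 2.22 ± 0.113 in MIR21-KO (n = 3, SD), and its spread within a group was small although the 2 levels each varied widely between MIR21-KO libraries. The share of RBL2 in the summed pocket protein FPKM was 32.8% ± 1.37 in Ctrl and 46.4% ± 0.724 in MIR21-KO. The share of RBL1 was 29.8% ± 1.15 and 20.9% ± 0.771, and that of RB1 was 37.5% ± 1.85 and 32.7% ± 0.370, again without overlap between groups. The summed level itself, 22.3 to 28.5 FPKM in Ctrl and 15.8 to 24.7 FPKM in MIR21-KO, did overlap. These proportions are given as descriptions and were not tested.

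**Figure D2:**
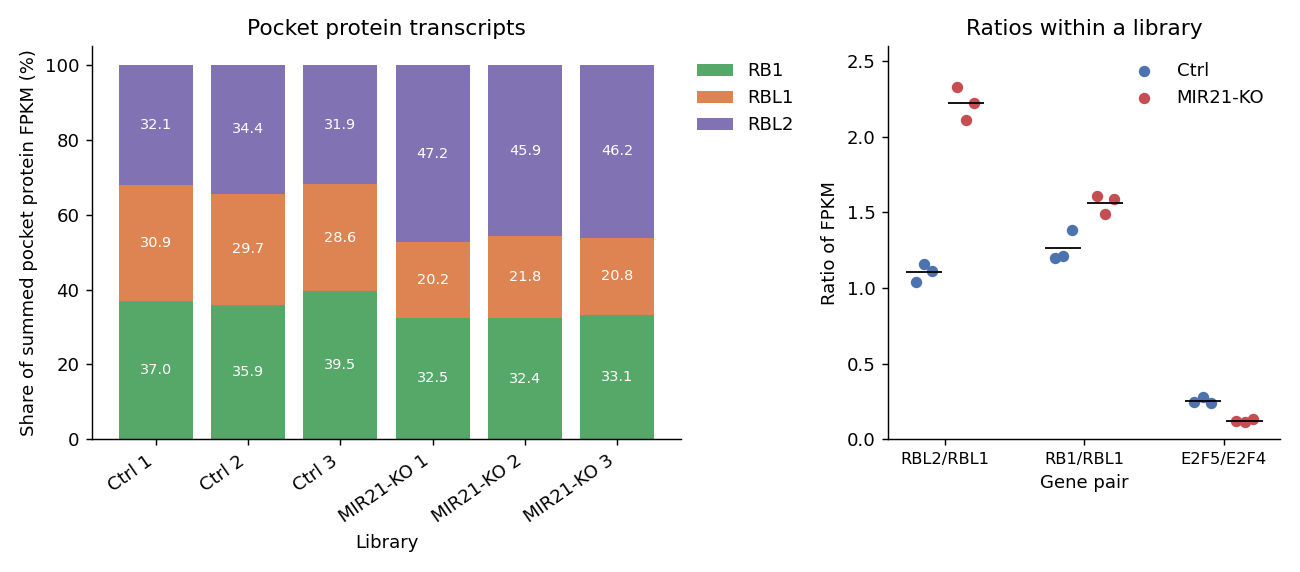
Left, share of RB1, RBL1 and RBL2 in the summed pocket protein FPKM of each library, in percent. Right, ratio of FPKM for 3 gene pairs, with 1 point per library and bars for group means. The RBL2 share is 31.9 to 34.4% in Ctrl and 45.9 to 47.2% in MIR21-KO, and the RBL2 to RBL1 ratio is above 2 in every MIR21-KO library.

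The 7 E2F transcripts summed to 66.4, 67.5 and 72.6 FPKM in Ctrl and to 52.7, 50.4 and 46.7 FPKM in MIR21-KO, without overlap. Within that sum E2F4 took 31.7% ± 0.548 in Ctrl and 37.0% ± 1.38 in MIR21-KO, whereas E2F5 took 8.11% ± 0.476 and 4.47% ± 0.276 (SD, n = 3). The balance of the summed activators over E2F4 plus E2F5 was 1.18 to 1.27 in Ctrl and 1.15 to 1.20 in MIR21-KO, and these ranges overlapped. The ratio of summed E2F to summed pocket protein FPKM, 2.33 to 3.02 and 1.89 to 3.34, overlapped as well.

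In order of their mean FPKM, the Ctrl levels ran E2F1, E2F4, RB1, RBL2, E2F3, RBL1, E2F5, E2F7, E2F2 and E2F8, from 22.9 down to 2.82 FPKM. Library values were separate between E2F4 and RB1, between RBL1 and E2F5 and between E2F7 and E2F2, and overlapped between all other neighbours. In MIR21-KO the order ran E2F4, E2F1, RBL2, E2F3, RB1, RBL1, E2F7, E2F5, E2F8 and E2F2, from 18.5 down to 1.5 FPKM. There, values were separate between E2F1 and RBL2, between E2F7 and E2F5 and between E2F5 and E2F8. RB1 stood above RBL2 and E2F3 in Ctrl and under both in MIR21-KO, although the libraries of these genes overlap.

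For 7 of the members, the order of the MIR21-KO libraries went with the base composition of the gene. E2F1 and E2F4, with 62.5% and 59.3% GC in their longest transcripts, were highest in MIR21-KO replicate 1 and lowest in replicate 3. E2F3, E2F7, RB1, RBL1 and RBL2, with 37.3% to 45.2% GC, were lowest in replicate 1 and highest in replicate 3. E2F5, at 38.3% GC, was highest in replicate 1, and E2F2 and E2F8 showed neither order. Over 15955 genes, the deviation of a library from its group mean changed by 0.106, 0.0299 and -0.136 log2 units per 10 points of GC in MIR21-KO replicates 1 to 3, and by -0.0345 to 0.026 in Ctrl. The trend ran between the groups as well, at 0.103 log2 units per 10 points of GC for MIR21-KO minus Ctrl. Once the dependence on GC content and on gene length had been taken out of every library, the range of E2F1 across MIR21-KO libraries went from 0.54 to 0.05 log2 units, and E2F1 was lower by limma at a log2 fold change of -0.69 ± 0.07 (FDR 0.000355). E2F4 (-0.34, FDR 0.0041) and RBL1 (-0.69, FDR 0.00611) were then called too, beside E2F2, E2F5 and E2F8, giving 6 of 10 members against 13.4% of all genes called lower in that fit. For E2F5 the range across MIR21-KO libraries went the other way, from 0.20 to 0.50 log2 units. The RBL2 to RBL1 difference between the groups was 0.99 log2 units before and 0.95 after this removal. The log2 fold change of RB1 was -0.53 before and -0.36 after. The E2F5 to E2F4 difference was -1.04 before and -0.79 after, and its SD across MIR21-KO libraries went from 0.123 to 0.295.

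**Figure D3:**
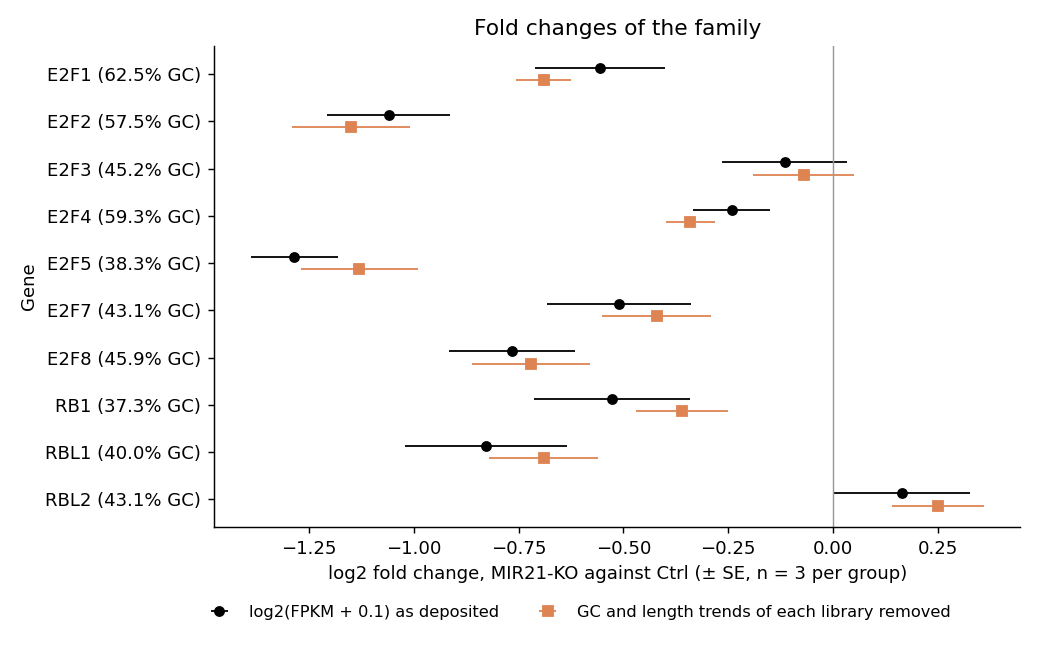
log2 fold change of each member in MIR21-KO against Ctrl, with bars for ± SE (n = 3 per group), on values as deposited (black circles) and with the GC and length trends of each library taken out (orange squares). E2F1 moves from -0.56 to -0.69 with a shorter bar, E2F5 from -1.28 to -1.13, and RBL2 stays to the right of 0 in both.

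The partners with which these proteins work were followed through lists of genes. Of 9 DP and MuvB partners, 3 fell, 0 rose by limma, and the median log2 fold change was -0.31, where 8.38% of all genes tested were lower and 7.66% higher. At an unadjusted p under 0.05 by limma, 1 was higher and 6 were lower, and by voom 0 were higher and 3 lower. At least 6795 of the 16006 genes reached such a p in either direction, which applies to each list below as well. LIN9, a MuvB subunit, was measured at 4.55, 4.04 and 4.56 FPKM in Ctrl and at 1.87, 1.77 and 2.53 FPKM in MIR21-KO (FDR 0.00355 by limma, at a log2 fold change of -1.07 ± 0.16). MYBL2 (B-Myb), which joins MuvB in dividing cells in place of the pocket proteins, went from a mean of 49.0 to 27.3 FPKM, and its relative MYBL1 from 7.18 to 3.40 FPKM (FDRs 0.00162 and 0.00122). RBBP4, the histone-binding MuvB subunit, had means of 17.7 and 14.5 FPKM (FDR 0.0151). The DP partners themselves, named after their values were seen, lay in opposite directions and did not pass. TFDP1 had means of 37.1 and 30.5 FPKM (FDR 0.0204), and TFDP2 had 3.02 and 3.74 FPKM (FDR 0.0918).

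Of 16 cofactors that bind RB proteins, 2 fell and 0 rose by limma, with a median log2 fold change of -0.25, beside 8.38% of all genes lower and 7.66% higher. At an unadjusted p under 0.05 by limma, 0 were higher and 10 lower, and at least 6795 of the 16006 genes reached such a p. Voom called 0 higher and 2 lower, where it called 11.4% of all genes lower. So few calls are near the share over all genes and are no result about the cofactors. The fallers were DNMT1, the maintenance DNA methyltransferase, at means of 20.1 and 12.2 FPKM, and RBBP8 (CtIP), which trims DNA ends at breaks, at 8.53 and 5.70 FPKM (FDRs 0.00273 and 0.00433). The histone deacetylase HDAC1 had means of 34.8 and 28.5 FPKM (FDR 0.0220), and RBBP6, a ubiquitin ligase, 7.58 and 6.03 FPKM (FDR 0.0245). Both called cofactors lost their call without Ctrl replicate 1, Ctrl replicate 2, Ctrl replicate 3 or MIR21-KO replicate 2. Those fits called 2.36% to 2.52% of all genes lower.

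The kinases, cyclins and inhibitors that set RB phosphorylation held called genes of both directions. Of 17 genes, 13 were tested, 5 fell and 2 rose, and the median log2 fold change was -0.04, beside 8.38% lower and 7.66% higher over all genes. The counts were 3 lower and 0 higher when either Ctrl replicate 3 or MIR21-KO replicate 2 was left out. Without Ctrl replicate 1 or 2 they were 3 lower and 1 higher. Those fits called 2.36% to 2.52% of all genes lower. Cyclin D1 (CCND1), which opens RB phosphorylation with CDK4 or CDK6, was measured at 81.9, 75.9 and 78.1 FPKM in Ctrl and at 25.0, 27.4 and 27.9 FPKM in MIR21-KO. MIR21-KO kept 34.1% of the Ctrl mean, at a log2 fold change of -1.55 ± 0.08 and an FDR of 6.44e-05 by limma. CCND3 and CCNE1, the cyclins D3 and E1, went from 48.6 to 26.7 and from 18.2 to 9.93 FPKM, and CDC25A, the phosphatase that activates CDK2, from 6.29 to 3.94 FPKM. CDK2, the partner of cyclin E, went from 18.2 to 13.1 FPKM (FDR 0.00576). CDC25A and CDK2 are named to complete the count of fallers, after their values were seen. SKP2, which marks the inhibitor p27 for degradation, rose from 8.23 to 15.6 FPKM (FDR 0.00161), and CDKN2C (p18), an inhibitor of CDK4 and CDK6, from 7.31 to 11.5 FPKM (FDR 0.00981).

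Untested in that list were CCND2, CDKN1C, CDKN2A and CDKN2B, which lay under the filter. CDKN2A and CDKN2B, the p16 and p15 genes, were at 0 in all 6 libraries. CDKN1C (p57), named after its values were seen, was at 0.0911, 0.0719 and 0.113 FPKM in Ctrl and at 0.795, 0.758 and 0.745 FPKM in MIR21-KO, from 2 to 4 reads and 24 to 28 reads. On these same libraries, the study described CCNE1, CDK2 and, of the family, E2F1, E2F5, RB1 and RBL1 as largely downregulated. It described CDC25A as lower and SKP2 as higher. Their place in the lists is therefore not independent evidence of a direction. By limma here, E2F1, RB1 and RBL1 did not pass the threshold (FDRs 0.0345, 0.0723 and 0.0187), although voom called RBL1 lower.

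Known target genes of the family were counted by kind. From these same libraries, the study reported its E2F target and G2M checkpoint gene sets as downregulated in MIR21-deleted cells. By flow cytometry it also found that these cells accumulated in G1. The G1/S and G2/M lists are therefore not independent evidence of a direction. Of 36 G1/S genes known as E2F targets, 28 fell, 0 rose by limma, all 36 had a negative log2 fold change, and the median was -0.74, beside 8.38% lower and a median of -0.02 over all genes tested. At an unadjusted p under 0.05, 0 were higher and 35 lower, and voom called 0 higher and 32 lower. MCM10, which starts unwinding at replication origins, was measured at 14.0, 13.4 and 12.8 FPKM in Ctrl and at 5.92, 6.25 and 5.85 FPKM in MIR21-KO (FDR 0.000186 by limma, log2 fold change -1.15 ± 0.08). The licensing factor CDC6 went from a mean of 27.4 to 13.2 FPKM, and the helicase subunits MCM2 and MCM4 from 36.1 to 16.5 and from 47.7 to 26.4 FPKM. Among the 32 genes of this list with a RefSeq promoter, 14 held an E2F word (43.8%), against 2.75% of all 27305 genes with one.

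Of 22 G2/M genes known to be bound by DREAM, 14 fell, 0 rose by limma, and the median log2 fold change was -0.60, beside 8.38% lower over all genes tested. At an unadjusted p under 0.05, 0 were higher and 21 lower, and voom called 0 higher and 17 lower. AURKA, a mitotic kinase, was measured at 63.9, 62.8 and 60.2 FPKM in Ctrl and at 29.2, 28.2 and 26.0 FPKM in MIR21-KO (FDR 0.000157 by limma, log2 fold change -1.16 ± 0.07). Cyclin B1 (CCNB1) went from 121.7 to 55.8 FPKM, the kinase PLK1 from 45.6 to 22.0 FPKM, and the midzone kinesin KIF23 from 33.0 to 18.9 FPKM. Among 17 genes of this list with a promoter, 12 held a CHR word (70.6%), against 18.2% of all genes with one. Fewer were called without Ctrl replicate 1, 2 or 3 or MIR21-KO replicate 2. In that order, 14, 15, 11 and 13 G1/S genes and 6, 7, 6 and 6 G2/M genes were called. Over all genes, 2.47%, 2.52%, 2.36% and 2.46% were called lower in those fits.

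The last list held other E2F targets, mostly genes of apoptosis. Of 12, 11 were tested, 0 fell and 1 rose by limma, and the median log2 fold change was 0.03. With 7.66% of all genes called higher, this 1 call is near the share over all genes. At an unadjusted p under 0.05 by limma, 3 were higher and 1 was lower. At least 6795 of the 16006 genes reached such a p in either direction, so these counts are no result about the list. By voom 1 was higher and 0 were lower. PHLDA1, a stress-responsive gene, was measured at 36.8, 36.2 and 35.4 FPKM in Ctrl and at 56.4, 52.8 and 54.6 FPKM in MIR21-KO (FDR 0.00115 by limma). BBC3 (PUMA) and BCL2L11 (BIM), which trigger apoptosis, had means of 8.75 and 14.2 FPKM and of 3.47 and 5.00 FPKM (FDRs 0.0292 and 0.0372). The difference between this list and the G1/S list was not tested.

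**Figure D4:**
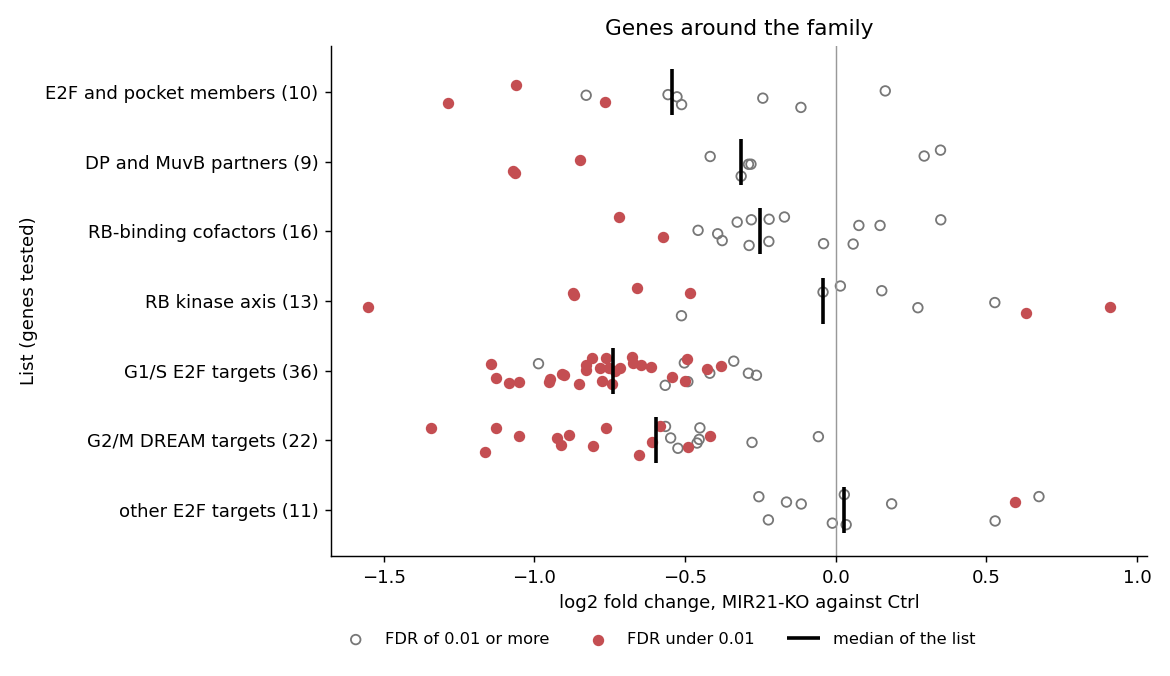
log2 fold change in MIR21-KO against Ctrl for each tested gene of the family and of the 6 lists around it, with 1 point per gene, filled where the FDR was under 0.01, and a black bar at the median of each list. The 36 G1/S genes all lie left of 0 with a median of -0.74, whereas the kinase axis spreads from -1.55 to 0.91.

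Across the 6 libraries, the protein-coding genes whose log2 values ran most closely with a member were named for E2F1, E2F5 and RB1. These correlations share the same 6 libraries and the difference between the groups, and are given as a description. For E2F1 they were NSRP1 and MAP1S (Pearson r 0.9970 and 0.9969). For E2F5 they were PPP2CA, SNX5 and ANXA10 (0.9994, 0.9990 and 0.9990). For RB1 they were ME1, KDM2A and TPR (0.9986, 0.9981 and 0.9981).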

How the data were processed

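PolyA RNA-seq of 3 Ctrl and 3 MIR21-KO libraries was analysed, grouped by sample titles. Strand-specific libraries were sequenced on an Illumina HiSeq instrument. The submitters' processing notes name cutadapt 1.14, HISAT2 2.1.0, SAMtools 1.5, featureCounts 1.5.3, edgeR 3.18.1 and hg38, while the strand setting of counting is not given in the sources used here. The authors deposited FPKM values for 58174 genes. Their own columns of log2 fold changes, p-values and FDRs were not used. FPKM times length gave whole multiples of 1 step per library for 100% of values (tolerance 0.01), from which reads were recovered. All 37 mitochondrial genes are listed at 0.

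The 16006 genes that averaged 0.5 FPKM or more entered limma 3.58.1 (R 4.3.3) as log2(FPKM + 0.1) (eBayes with trend and robust fitting, two-sided, Benjamini-Hochberg over all genes tested). The pseudocount understates fold changes of low genes. The study took its FDRs from a count model; here the main test is on the deposited FPKM scale, and voom on the recovered reads is the alternative. The procedure was also run on simulated reads with a common dispersion and no GC trend, so that run does not cover the GC trends of these libraries. Coordinates, GC content of the longest transcript and 3' UTRs came from GENCODE 29 on GRCh38, which matched 57836 genes. The alternatives were voom on recovered reads, the replicate number as a block, 1 library left out at a time, other pseudocounts, filters, scalings, variance model and threshold, removal of GC and length trends (lowess, span 0.3), and protein-coding genes only.

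The members and the gene lists were chosen with earlier results of these data known. Named genes were all members, MIR21, VMP1, the 4 genes of each list with the smallest p, called genes opposite to their list's median, and the 3 genes most correlated with E2F1, E2F5 and RB1. A few genes that this rule names are not reported here.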

Additional observations from a re-analysis of the deposited data

How the results depend on the processing

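Recomputing the 10 log2 fold changes under 21 alternatives gave 210 values, of which 0 changed sign and 184 stayed on their side of the threshold. 17 lost a call and 9 gained one. Of 16006 genes, 2568 were called; the block gave 651, voom 3496, no filter 1810 of 29384, GC and length removal 3960, that removal with the block 1770, an FDR of 0.05 gave 5114, and leaving out a library 784 to 3418. With the replicate block, 1 member was called, with 0 of the DP and MuvB partners, 0 cofactors, 2 of the kinase axis (0 of them higher), 8 G1/S genes, 5 G2/M genes and 0 other targets. Libraries of the same number did not deviate together (r -0.171, -0.0177 and -0.0174), so the numbers were not taken as pairs. With GC and length trends removed, 6 members, 5 cofactors and 2 other targets were called, and with the block as well 3 members (E2F1, E2F2 and E2F5) and 1 cofactor, with E2F4, E2F8 and RBL1 at FDRs of 0.0218, 0.0234 and 0.031. At an FDR of 0.05 the counts were 5 members, 5 partners, 6 cofactors and 4 other targets. Leaving out a library gave 1 to 3 members, 1 to 3 partners, 0 to 3 cofactors, 3 to 9 of the kinase axis, 11 to 30 G1/S genes, 6 to 15 G2/M genes and 0 to 2 other targets. The E2F word TTTCCCGC alone was found in 1 member. The cause of these shifts was not tested. E2F8 kept its call in 8 of 21 alternatives and E2F2 in 17. E2F3 and RBL2, with 372 to 580 and 604 to 1081 reads a library, were called in 0 of 21, and changes inside their intervals cannot be told from none here.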
